A study of Homo sapiens with 4 samples.

Results

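The 9 genes CYBA, CYBB, NCF1, NCF4, RAC1, RAC2, SOD1, SOD2 and CAT encode parts of the phagocyte NADPH oxidase and enzymes that remove superoxide and hydrogen peroxide. They are a set of names and no threshold on their values selected them, although earlier results of these data were known when the set was chosen. They were followed in MOLM-13, an established human line of acute myeloid leukaemia with an MLL-AF9 fusion and an internal tandem duplication in FLT3. RNA was sequenced from 4 libraries. The 2 untreated libraries (untreated 1 and 2) came from cells without doxycycline. The 2 induced libraries (induced 1 and 2), titled GADD45g, came from cells given doxycycline for 4 days at 1 mg/ml, as the label writes the dose. The design text calls the 2 libraries of a group biological replicate experiments. All groups share the cell line, and cells that received the drug but not the construct were not analysed here, so the effects of doxycycline and of GADD45G cannot be told apart. The labels do not say which promoter or vector drives the gene or whether the cells are 1 clone. All 9 genes were listed in every library, and all 9 were among the 10771 genes that passed the filter on low values, which asked for 1 RPKM or more when the 4 libraries are averaged. RPKM counts reads scaled to the length of the gene and the size of the library. Changes are given on the log2(RPKM + 1) scale as induced minus untreated, with the standard error (SE) or the 95% interval from limma, and levels as mean ± SD with n = 2 per group. That scale understates the change of a gene with a low level.

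The oxidase of phagocytes moves electrons from NADPH across a membrane onto oxygen and so makes superoxide. Its membrane part is a heterodimer of CYBB (gp91phox, also called NOX2), which carries the electrons, and its stabilizing partner CYBA (p22phox). On activation cytosolic subunits, among them NCF1 (p47phox) and NCF4 (p40phox), and the small GTPase RAC join it. RAC2 is the form found mostly in blood cells and RAC1 the form found in nearly all cells. Superoxide dismutases turn superoxide into hydrogen peroxide, SOD1 in the cytosol and SOD2 in mitochondria, and catalase (CAT), mostly in peroxisomes, breaks hydrogen peroxide down. Mature monocytes and neutrophils make this oxidase in quantity, and defects in its subunits cause chronic granulomatous disease.

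The 9 genes did not move together after induction. CYBB, the catalytic subunit of the oxidase, was 6.69-fold lower and CAT was 4.97-fold lower by group means. NCF1, RAC2 and SOD2 were 2.66-fold, 2.38-fold and 2.47-fold higher. CYBA, NCF4, RAC1 and SOD1 did not pass the test. Of the 9 genes 3 were therefore called higher, where 12.2% of all tested genes were, and 2 were called lower, where 26.7% were (limma, Benjamini-Hochberg adjusted p under 0.05). In either direction 5 of 9 were called, against 38.9% of all tested genes. In the same 5 genes the untreated and induced values did not overlap, and in the other 4 they did; over all tested genes 70.0% had values that did not overlap. The median log2 change was -0.14 over the 9 genes and -0.21 over all tested genes.

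**Figure D1:**
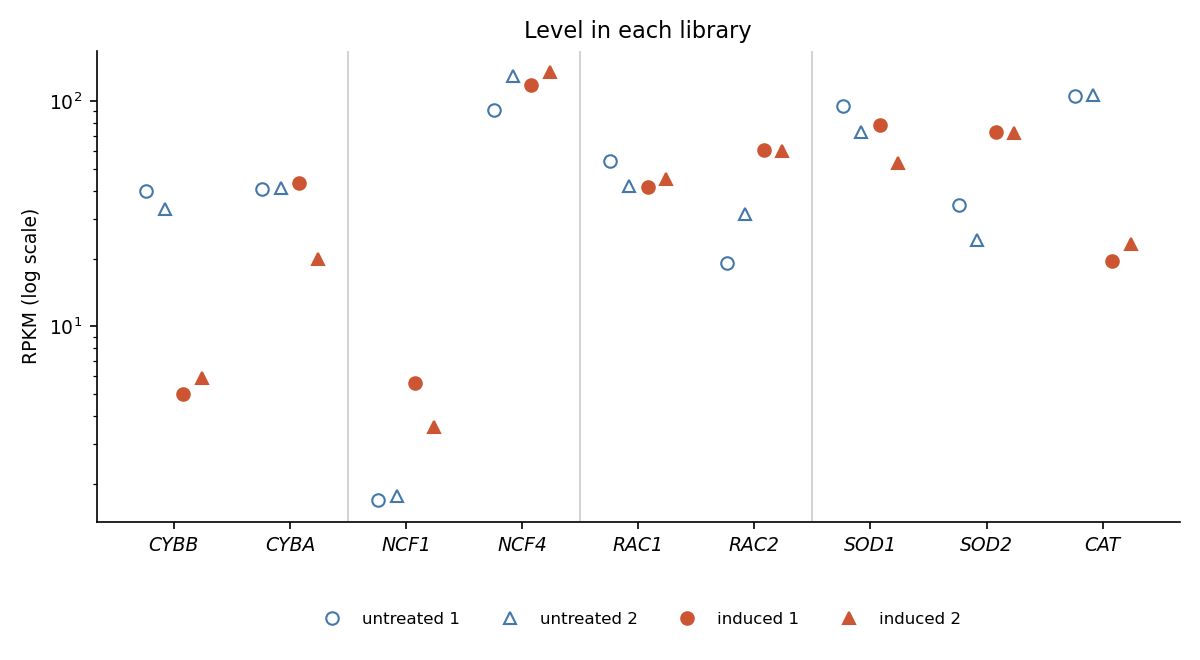
RPKM (vertical axis, log scale) of the 9 genes in each library; open blue symbols are untreated, filled red symbols induced, circles the libraries numbered 1 and triangles those numbered 2. CYBB and CAT lie lower in both induced libraries, NCF1, RAC2 and SOD2 lie higher in both, and CYBA is split, with induced 1 at 43.4 RPKM and induced 2 at 19.8 RPKM.

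The libraries held 15683931 to 18895470 reads, as recovered from the values. GADD45G, the gene to be expressed, stood at 10.5 and 0.289 RPKM in the untreated libraries and at 3236 and 2118 RPKM in the induced ones. Of 8 marker genes of the leukaemia line 5 were tested, with 0 called higher and 1 lower (12.2% and 26.7% of all tested genes). The 1 was CD4, at 82.5 and 92.1 RPKM untreated and 38.3 and 39.1 RPKM induced. CD33 went from 17.6 and 21.5 to 12.5 and 13.7 RPKM and PTPRC (CD45) from 25.1 and 23.9 to 28.5 and 36.1 RPKM. Neither passed, and neither did MEIS1 or HOXA9. FLT3 was at 0.958 and 1.19 RPKM in the untreated libraries and at 0.0889 and 0.0451 RPKM after induction, and was not tested. KIT was at most 0.138 RPKM and CD34 at most 0.0161 RPKM. The 7 epithelial markers summed to 41.7 and 40.8 RPKM in untreated 1 and induced 1 but to 0.423 and 0.245 RPKM in untreated 2 and induced 2, where EPCAM was at 0. These reads set the libraries numbered 1 apart from those numbered 2 in both groups alike, so the change within each number is given beside those of the 9 genes that were called. The 6 erythroid markers in all 4 files summed to at most 0.738 RPKM, with HBA1, HBA2 and HBG1 at 0 in every library; red cells are rich in CAT and SOD1. In such bulk RNA fewer cells of a type and less RNA per cell cannot be told apart.

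CYBB, NCF1 and CAT are shown with the sequence around their start because each was called and each has a single start in the RefSeq promoter table (build GRCh38.p14, 250 bases before the start and 50 from it on). CYBB and NCF1 are phagocyte genes with opposite changes, and CAT is a widely expressed gene that fell with CYBB. The files themselves are on hg19, so these positions are not those of the files. Windows are written 5′ to 3′ on the strand of the gene, with the PU.1 core in capitals (GAGGAA, or TTCCTC on the other strand). CYBB lies at chrX:37779809-37780108 on the plus strand, NCF1 at chr7:74773761-74774060 on the plus strand and CAT at chr11:34438684-34438983 on the plus strand.

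CYBB: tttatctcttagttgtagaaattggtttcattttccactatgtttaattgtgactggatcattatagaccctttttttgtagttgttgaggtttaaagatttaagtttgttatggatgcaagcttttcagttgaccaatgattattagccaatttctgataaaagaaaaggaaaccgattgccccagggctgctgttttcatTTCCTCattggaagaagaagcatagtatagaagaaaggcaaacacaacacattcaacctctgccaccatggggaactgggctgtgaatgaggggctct

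NCF1: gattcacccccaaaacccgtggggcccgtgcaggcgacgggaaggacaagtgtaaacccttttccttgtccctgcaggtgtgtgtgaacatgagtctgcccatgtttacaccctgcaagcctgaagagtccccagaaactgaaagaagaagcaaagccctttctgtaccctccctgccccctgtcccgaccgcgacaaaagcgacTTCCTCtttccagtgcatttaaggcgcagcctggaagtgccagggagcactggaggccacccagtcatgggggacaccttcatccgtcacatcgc

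CAT: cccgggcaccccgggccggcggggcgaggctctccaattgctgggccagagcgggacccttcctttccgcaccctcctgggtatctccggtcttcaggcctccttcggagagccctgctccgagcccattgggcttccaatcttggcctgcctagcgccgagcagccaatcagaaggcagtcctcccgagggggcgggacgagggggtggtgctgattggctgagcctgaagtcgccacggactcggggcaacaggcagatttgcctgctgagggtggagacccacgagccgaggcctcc

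The PU.1 core stood once in the CYBB window, beginning at position -48 from the start, and once in the NCF1 window, beginning at position -45. It was not in the CAT window. On either strand it was held by 27.9% of all 35116 promoter windows. The CCAAT box (CCAAT or ATTGG) occurred 4 times in the CYBB window and 5 times in the CAT window, and not in that of NCF1, and 34.6% of all windows held it. It shared 0 bases with the PU.1 core in CYBB. The GC box (GGGCGG, either strand) occurred 0 times in CYBB and NCF1, once in CAT and 6 times in CYBA (45.0% of all windows). Of the 9 genes 5 had entries, SOD2 with 4 starts. In its windows the GC box occurred 1 to 6 times, and the PU.1 core once in 2 of the 4; it was not in the CYBA window. The NF-kB consensus was in none of the 4 SOD2 windows and occurred once in that of CYBA (11.3% of all windows). The AP-1 motif TGANTCA was in none of the windows of the 5 genes (7.71% of all windows). Such matches describe the letters only.

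Of the membrane subunits, CYBB changed and CYBA did not pass. CYBB (ENSG00000165168) was at 39.9 and 33.0 RPKM in the untreated libraries and at 5.04 and 5.88 RPKM in the induced ones. Both induced libraries lay far below both untreated ones. The level went from 36.5 ± 4.88 to 5.46 ± 0.593 RPKM (log2 change -2.53, SE 0.23, 95% interval -3.04 to -2.03, limma adjusted p = 2.31e-05). CYBB stood higher than 90.7% and 89.0% of the tested genes in the untreated libraries and higher than 41.6% and 46.4% after induction. The induced values rest on 421 and 415 reads, with exact Poisson 95% intervals of 4.57 to 5.54 RPKM and 5.32 to 6.47 RPKM. Within the libraries numbered 1 the log2 ratio of RPKM was -2.99 and within those numbered 2 it was -2.49.

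CYBA (ENSG00000051523), the partner that CYBB needs for a stable heterodimer, was at 40.7 and 41.0 RPKM in the untreated libraries and at 43.4 and 19.8 RPKM in the induced ones. Only induced 2 was lower, and the groups overlapped. The difference did not pass (log2 change -0.46, 95% interval -1.18 to 0.26, limma adjusted p = 0.288). A single induced library decided its call. Without induced 1 the log2 change was -1.01 and passed (limma adjusted p = 0.0317), and without induced 2 it was 0.08 (limma adjusted p = 0.872). Counting error does not cover the gap between the induced libraries, with 95% intervals of 41.7 to 45.0 RPKM and 18.7 to 21.1 RPKM. Before induction the subunits were at nearly the same RPKM, with a ratio of CYBB to CYBA of 0.982 and 0.805, and after it the ratio was 0.116 and 0.296.

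Of the cytosolic subunits, NCF1 rose and NCF4 did not pass. NCF1 (ENSG00000158517), the organizer that carries the phosphorylation sites for assembly, had the lowest mean of the 9 genes in both groups, though CYBB was below it in induced 1. It was at 1.69 and 1.77 RPKM in the untreated libraries and 5.61 and 3.58 RPKM after induction. Both induced values lay above both untreated ones, although the induced libraries differed from each other by more than the untreated ones did. The log2 change was 1.01, SE 0.24 (limma adjusted p = 0.00667). It did not pass without untreated 1 (limma adjusted p = 0.0511), without induced 1 (0.112) or with no filter on low values (0.0898). The values rest on 96 to 367 reads. Within libraries of the same number the log2 ratio of RPKM was 1.73 and 1.02.

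NCF1 has near-identical pseudogene copies on the same chromosome, so its reads cannot be assigned with certainty. The copy NCF1C was at 4.31 and 4.45 RPKM in the untreated libraries and at 16.03 and 12.1 RPKM after induction, above NCF1 itself in every library. It rose by 1.48, SE 0.23 (limma adjusted p = 0.000554). NCF1B was at 0.765 and 1.67 RPKM and then at 0.787 and 1.45 RPKM, with overlapping groups (limma adjusted p = 0.894). Summed over the 3 loci the level was 6.76 and 7.88 RPKM in the untreated libraries and 22.4 and 17.2 RPKM in the induced ones, higher in both.

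NCF4 (ENSG00000100365), which binds the lipid phosphatidylinositol 3-phosphate, had the highest mean of the 9 genes in both groups. It was at 91.6 and 129 RPKM in the untreated libraries and 117 and 134 RPKM in the induced ones. The untreated libraries differed more from each other than the group means did, 110 ± 26.2 against 126 ± 12.0 RPKM (log2 change 0.21, 95% interval -0.38 to 0.79, limma adjusted p = 0.571).

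**Figure D2:**
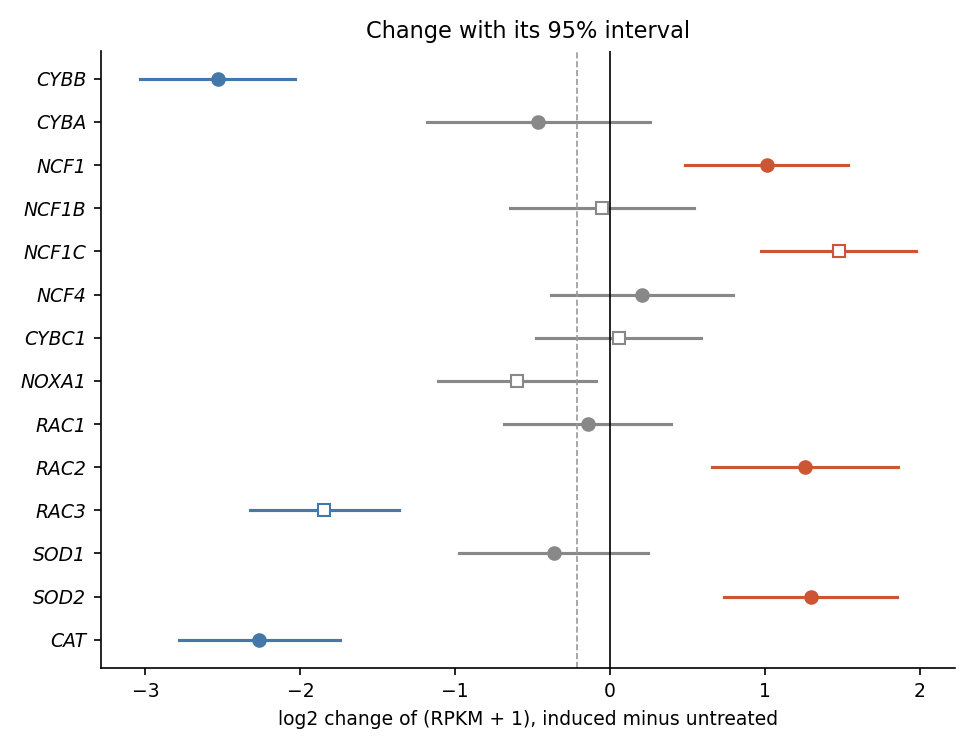
Log2 change of RPKM + 1 (horizontal axis) with its 95% interval from limma for the 9 genes (filled circles) and related genes (open squares); red marks genes called higher, blue lower and grey neither, and the dashed line is the median of all tested genes at -0.21. NCF1C, SOD2, RAC2 and NCF1 lie to the right of 0, CYBB, CAT and RAC3 to the left.

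The RAC genes exchanged their order. RAC2 (ENSG00000128340) was at 19.1 and 31.6 RPKM in the untreated libraries and at 60.6 and 59.8 RPKM in the induced ones. The induced values were close to each other and above both untreated values, which were spread. RAC2 rose by 1.26, SE 0.27 (95% interval 0.66 to 1.86, limma adjusted p = 0.00415), and with no filter on low values it missed the threshold (0.0624). Within libraries of the same number the log2 ratio of RPKM was 1.67 and 0.92.

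RAC1 (ENSG00000136238) was at 54.4 and 41.9 RPKM untreated and at 41.3 and 45.1 RPKM induced, with overlapping groups. Its log2 change of -0.14 did not pass (95% interval -0.68 to 0.40, limma adjusted p = 0.678), and its sign depended on the scaling, being 0.03 after upper quartile scaling, 0.02 after quantile normalization and 0.07 with the median change set to 0. RAC2 was at 0.351 and 0.753 of the RAC1 level in the untreated libraries and at 1.47 and 1.33 of it in the induced ones. RAC3, the third RAC gene, was at 7.29 and 7.22 RPKM and fell to 1.56 and 1.07 RPKM (log2 change -1.84, limma adjusted p = 0.000113).

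Among the enzymes that handle superoxide and peroxide, SOD2 rose, CAT fell and SOD1 did not pass. SOD2 (ENSG00000112096), the manganese enzyme of mitochondria and a known target of NF-kB, was at 34.5 and 24.2 RPKM in the untreated libraries and 72.8 and 72.3 RPKM in the induced ones. The induced libraries differed from each other by less than 1 RPKM. The log2 change was 1.30, SE 0.25 (95% interval 0.74 to 1.86, limma adjusted p = 0.00229). Within libraries of the same number the log2 ratio of RPKM was 1.08 and 1.58. SOD2 had the most reads of the 9 genes, 7207 to 26103 per library. Its RPKM is scaled to a long summed model of 18985 bases, against 1759 to 4423 bases for the others. In GENCODE release 29, 298 exon bases of SOD2 (1.8%) lie opposite WTAP, which stood at 27.5, 22.6, 22.2 and 23.2 RPKM in the libraries in the order untreated 1 and 2, induced 1 and 2. A further 845 bases (5.1%) are shared with a second gene model of the same symbol on the same strand.

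SOD1 (ENSG00000142168), the copper and zinc enzyme of the cytosol, was at 95.1 and 72.6 RPKM untreated and at 78.2 and 52.9 RPKM induced. In both groups the library numbered 1 was the higher one, and the groups overlapped. The log2 change was -0.36 (95% interval -0.98 to 0.25, limma adjusted p = 0.324).

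CAT (ENSG00000121691) was at 105 and 106 RPKM in the untreated libraries and at 19.5 and 23.1 RPKM in the induced ones. The untreated values were nearly equal, and both induced values were far below. The level went from 106 ± 0.858 to 21.3 ± 2.56 RPKM (log2 change -2.26, SE 0.24, 95% interval -2.78 to -1.75, limma adjusted p = 5.21e-05). Within libraries of the same number the log2 ratio of RPKM was -2.43 and -2.20. By adjusted p CAT and CYBB were the strongest of the 9 genes, at ranks 274 and 148 of the 10771 tested. SOD2, RAC2 and NCF1 stood at ranks 1689, 2075 and 2387.

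The order of the 9 levels changed with these differences. In the untreated libraries it ran, by mean RPKM, from NCF4 (110) over CAT (106), SOD1 (83.8), RAC1 (48.2), CYBA (40.9), CYBB (36.5), SOD2 (29.4) and RAC2 (25.3) to NCF1 (1.73). The neighbours NCF4 and CAT, CYBB and SOD2, and SOD2 and RAC2 overlapped between libraries. In the induced libraries it ran from NCF4 (126) over SOD2 (72.5), SOD1 (65.5), RAC2 (60.2), RAC1 (43.2), CYBA (31.6), CAT (21.3) and CYBB (5.46) to NCF1 (4.60). There SOD2 and SOD1, SOD1 and RAC2, RAC1 and CYBA, CYBA and CAT, and CYBB and NCF1 overlapped. Ratios of gene levels taken within a library do not depend on the scaling of that library. The ratio of SOD2 to SOD1 was 0.363 and 0.333 in the untreated libraries and 0.930 and 1.37 in the induced ones, and that of CAT to SOD1 was 1.10 and 1.46 and then 0.249 and 0.437. The ratios of RAC2 to RAC1, CYBB to CYBA, SOD2 to SOD1 and CAT to SOD1 each separated the groups without overlap. With 2 libraries a group the exact two-sided permutation test cannot go below p = 0.333, which each of these reached.

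**Figure D3:**
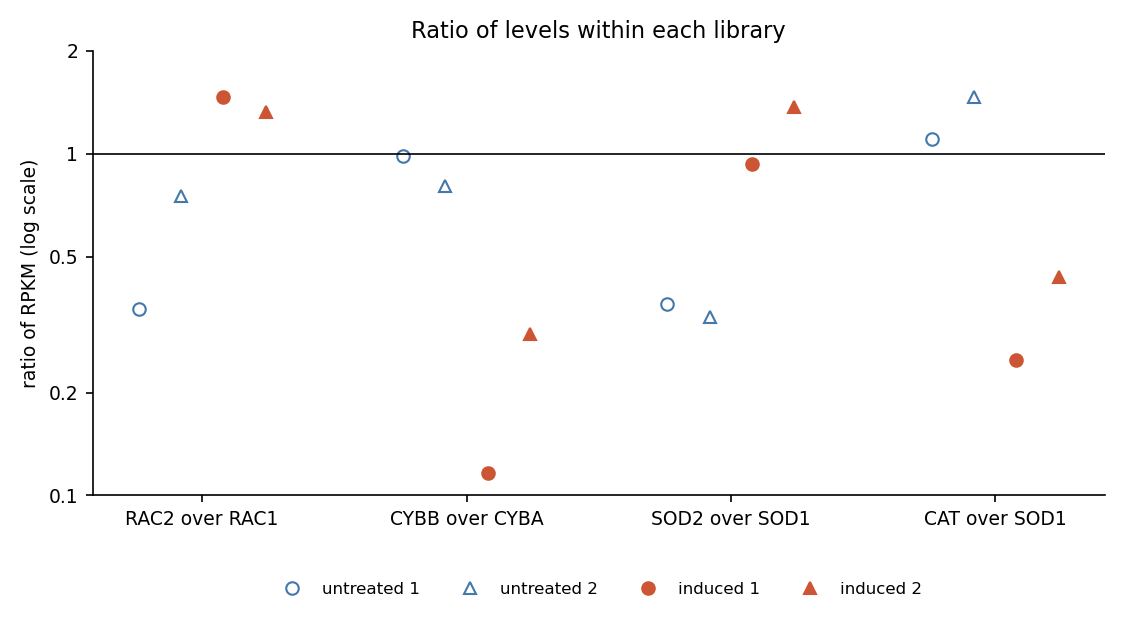
Ratio of the RPKM of 1 gene to that of another within each library (vertical axis, log scale; the line marks equal levels), with symbols for the libraries as in the plot of levels. RAC2 over RAC1 goes from below 1 to above 1, and CYBB over CYBA from 0.982 and 0.805 to 0.116 and 0.296.

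Few other oxidase genes were expressed. Of 11 further genes of the oxidase family and its partners, 10 were in all 4 files and 2 were tested. Of these 2, 0 were called, against 38.9% of all tested genes in either direction. With no adjustment 1, NOXA1, had a limma p under 0.05. CYBC1, a chaperone of the CYBB and CYBA heterodimer, was at 14.9 and 18.9 RPKM untreated and 19.8 and 15.4 RPKM induced (log2 change 0.06, limma adjusted p = 0.876). NOXA1, an activator of other oxidases of the family, was at 14.3 and 16.1 RPKM and then at 11.1 and 8.43 RPKM, a difference that missed the threshold (log2 change -0.60, limma adjusted p = 0.0612) and passed with a replicate block (0.0381), with only genes of 5 RPKM or more (0.0410) and with a robust prior (0.0478). The homologues of CYBB, and the DUOX partners DUOXA1 and DUOXA2, were at most at a trace. NOX1 was at 0.0248 to 0.168 RPKM and DUOX1 at 0.158 to 0.406 RPKM. NOX3, NOX4, DUOX2, DUOXA1 and DUOXA2 had 0 to 10 reads in each library, and NOX5, which the file of induced 1 does not reach, was at most 0.0300 RPKM in the other 3. NOXO1, a homologue of NCF1, was at 0.343 to 1.15 RPKM. The granule enzymes MPO, EPX and LPO, which use hydrogen peroxide, were at most 0.458 RPKM in any library and were not tested.

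The list of RAC control holds regulators of RAC, related GTPases (RAC3, RHOG, CDC42, RAP1A) and the effector kinases PAK1 and PAK2. Of its 16 tested genes 0 were called higher and 5 lower, with a median log2 change of -0.31 (12.2% and 26.7% of all tested genes were called higher and lower). With no adjustment 0 of the 16 had a limma p under 0.05 and a positive change. Of the 10 regulators alone 3 were called lower (ARHGDIB, ARHGAP15 and VAV2), with a median of -0.31, and the other 2 calls were RAC3 and PAK2. ARHGDIB, the inhibitor that holds RAC proteins of blood cells in the cytosol, went from 245 and 307 RPKM to 89.6 and 94.1 RPKM (log2 change -1.57, limma adjusted p = 0.000801). ARHGAP15, which switches RAC off, fell from 10.7 ± 0.757 to 3.73 ± 1.51 RPKM; with no filter it missed the threshold (limma adjusted p = 0.0570). VAV2, an exchange factor, and PAK2 had log2 changes of -0.92 and -0.70. VAV2 lost the call without untreated 2, without either induced library and with no filter (limma adjusted p 0.0617 to 0.129). PAK2 lost it without any 1 library, after each of the 3 other scalings and with no filter (0.0552 to 0.237). The exchange factors PREX1, VAV1 and DOCK2, named after their values were seen, had log2 changes of 0.35, -0.11 and -0.33 and did not pass.

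Kinases and adaptors that activate the oxidase mostly did not pass the test, as was so for all tested genes. Of 11 tested genes 1 was called higher and 2 lower, with a median of -0.06. Among all tested genes 12.2% were called higher and 26.7% lower. PIK3R5, a regulatory subunit of phosphoinositide 3-kinase gamma, rose from 6.45 ± 1.25 to 23.6 ± 0.757 RPKM (limma adjusted p = 0.000216). PIK3CD, the delta catalytic subunit, fell from 47.2 ± 11.8 to 10.1 ± 0.213 RPKM, and the kinase BTK fell from 55.3 ± 7.58 to 13.1 ± 2.00 RPKM. PRKCB, a protein kinase C form that phosphorylates NCF1, was at 51.2 and 61.9 RPKM and then at 71.3 and 90.4 RPKM, which did not pass (log2 change 0.50, limma adjusted p = 0.138; 0.0461 with the median change set to 0).

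Other genes that remove peroxide or superoxide moved in different directions. Of 13 listed genes 8 were tested, 1 was called higher and 3 lower, with a median of -0.31. Over all tested genes 12.2% were called higher and 26.7% lower. PRDX3, the peroxiredoxin of mitochondria, where SOD2 makes hydrogen peroxide, went from 59.4 and 45.8 RPKM to 19.3 and 17.9 RPKM (log2 change -1.44, limma adjusted p = 0.00092). PRDX2 was 2.33-fold lower. PRDX4 was called lower as well (log2 change -0.72), but not without any 1 library, after the 3 other scalings or with no filter (limma adjusted p 0.0534 to 0.202). CCS, the chaperone that loads copper into SOD1, was at 8.65 and 8.63 RPKM and rose to 21.7 and 13.2 RPKM (log2 change 0.90, limma adjusted p = 0.0191). Its call was lost with no filter and without either untreated library or induced 1 (0.0924 to 0.215). PRDX6 did not pass (log2 change -0.59, limma adjusted p = 0.0814; 0.0449 with a replicate block). GPX1 was at 335 and 338 RPKM untreated and at 153 RPKM in induced 2, and the file of induced 1 does not reach it, so it was not tested.

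Among genes that supply NADPH, the substrate of the oxidase, 7 of the 11 tested genes reported fell and 0 were called higher, with a median log2 change of -0.82 (26.7% and 12.2% of all tested genes were called lower and higher). The RPKM summed over the 13 genes reported, of which PGD was the highest, was 1045 and 1082 in the untreated libraries and 1110 and 1043 in the induced ones. With no adjustment 1, PGD, had a limma p under 0.05 and a positive change. PGD, a dehydrogenase of the pentose phosphate pathway, named after its values were seen, was at 464 and 474 RPKM and then at 708 and 701 RPKM, which did not pass (limma adjusted p = 0.102). The 4 genes that fell with the smallest adjusted p work in mitochondria or in the citrate route. NNT, the transhydrogenase of the mitochondrial membrane, was 3.42-fold lower, NADK2, the mitochondrial NAD kinase, 3.91-fold, IDH2 2.73-fold and IDH1, its cytosolic counterpart, 2.27-fold. NADK, the cytosolic NAD kinase, was 2.27-fold lower, and its call was lost with no filter (limma adjusted p = 0.0543) and without induced 2 (0.0569). The 8 transcripts of the mitochondrial genome that were measured summed to 44981 and 52588 RPKM in the untreated libraries and to 23424 and 29219 RPKM in the induced ones, with 5 of 8 called lower; their part in the other differences was not tested.

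**Figure D4:**
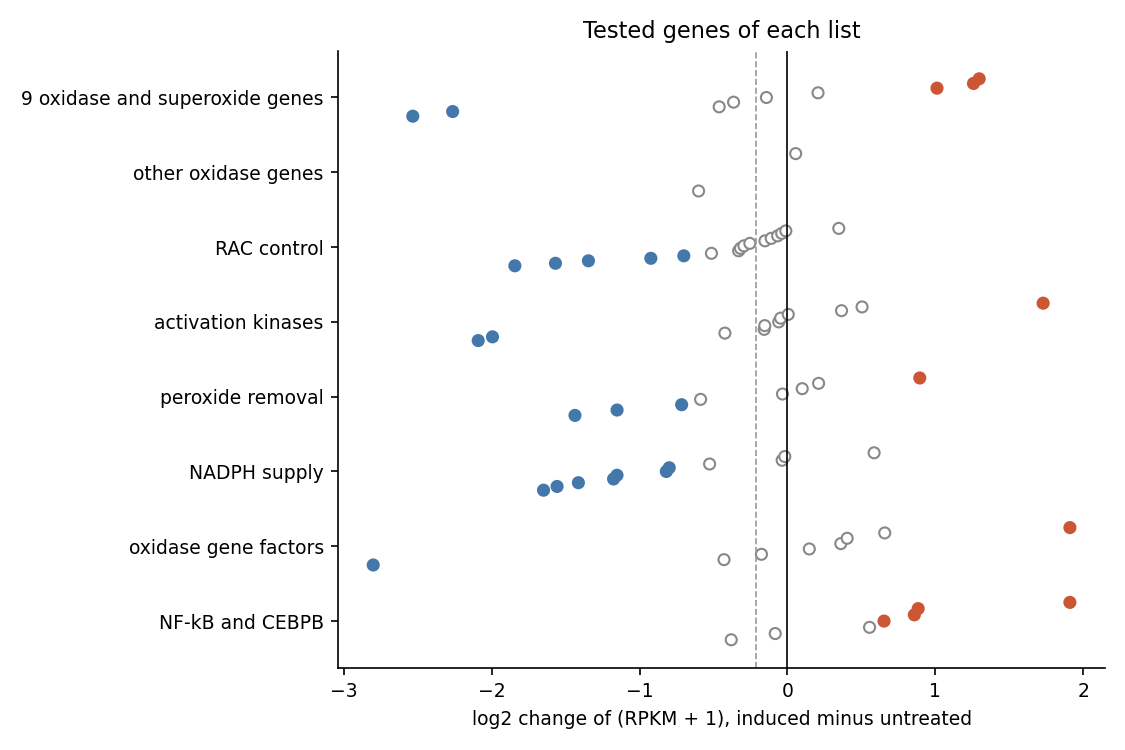
Log2 change of RPKM + 1 (horizontal axis) for each tested gene, grouped by list; filled red points were called higher, filled blue points lower, open points neither, and the dashed line is the median of all tested genes at -0.21. The 9 oxidase and superoxide genes spread from -2.53 to 1.30, and the NADPH supply genes lie mostly to the left of 0.

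Transcription factors known to act on the oxidase genes differed in direction. Of 12 listed factors 8 were tested, 1 was called higher and 1 lower, with a median of 0.25. The shares over all tested genes were 12.2% called higher and 26.7% lower. IRF8, which is known to act with PU.1 on the CYBB promoter, was at 44.4 and 35.9 RPKM untreated and 6.06 and 3.87 RPKM induced (log2 change -2.80, limma adjusted p = 2.41e-05). SPI1, the gene of PU.1, was at 68.7 and 74.7 RPKM and then at 101 and 84.0 RPKM, which did not pass (log2 change 0.36, 95% interval -0.18 to 0.90, limma adjusted p = 0.269). CEBPB, a factor of monocytes and of inflammation, rose from 42.8 and 57.3 RPKM to 204 and 175 RPKM (log2 change 1.91). IRF1 did not pass (log2 change 0.66, limma adjusted p = 0.0630) but did under 8 of the 16 alternatives, with a lowest adjusted p of 0.0165. CEBPE had a log2 change of 0.40 (limma adjusted p = 0.268). CEBPA was at 3.36 and 3.54 RPKM untreated and 0.643 RPKM in induced 2, and was not tested because the file of induced 1 does not reach it.

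Of 7 tested genes listed as factors of SOD2, 4 were called higher and 0 lower, with a median of 0.65, but CEBPB is a C/EBP factor that the list of oxidase gene factors holds too. Of the 6 NF-kB genes, a family known to act on SOD2, 3 were called higher, with a median of 0.60. For comparison, 12.2% of all tested genes were called higher and 26.7% lower. With no adjustment 0 of the 6 had a limma p under 0.05 and a negative change. The 3 were NFKBIA, the inhibitor that NF-kB itself induces, at 17.3 ± 1.53 and 32.2 ± 2.13 RPKM, NFKB2 at 16.7 ± 1.47 and 32.1 ± 8.09 RPKM and RELA at 9.56 ± 0.318 and 15.6 ± 1.59 RPKM. The calls of NFKBIA, NFKB2 and RELA were lost without untreated 1 or without induced 1 (limma adjusted p 0.0583 to 0.215), those of NFKB2 and RELA also without untreated 2 and with no filter (0.0550 to 0.0915), and that of RELA without induced 2 (0.0972). RELB did not pass (log2 change 0.56, limma adjusted p = 0.103) but did after each of the 3 other scalings (lowest adjusted p 0.0335). NFKB1 and REL, named after their values were seen, had negative log2 changes of -0.38 and -0.08 and did not pass. NFKB1 went from 10.0 and 10.6 RPKM to 7.80 and 7.59 RPKM, without overlap.

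Monocyte markers moved in both directions, and the measured granulocyte markers, which are mostly genes of immature granulocytes, fell. The 12 monocyte markers in all 4 files summed to 1295 and 969 RPKM in the untreated libraries and to 1016 and 933 RPKM in the induced ones. Of these, 4 of 7 tested markers were called higher and 1 lower (12.2% and 26.7% of all tested genes were called higher and lower). S100A8 went from 11.4 and 11.1 RPKM to 126 and 99.0 RPKM and LYZ from 1173 and 868 RPKM to 268 and 242 RPKM. CD14 went from 0.565 and 0.541 RPKM to 1.37 and 1.49 RPKM. FCGR3A went from 0.0179 and 0.0214 RPKM to 0.302 and 0.294 RPKM. CD68, at 0.0726 to 0.172 RPKM, overlapped between groups. These low levels were not tested. In the granulocyte list 5 of 5 tested markers were called lower, CSF3R and the azurophil granule genes ELANE, PRTN3, AZU1 and CTSG, which promyelocytes express. The markers of later granulocytes LTF, LCN2, CAMP, FCGR3B, CEACAM8 and MMP8 were at most 2.29 RPKM in any library and were not tested. The 12 genes of the list summed to 1793 and 1718 RPKM in the untreated libraries and to 66.9 and 44.0 RPKM in the induced ones. The 7 fibroblast markers summed to at most 4.83 RPKM. The 7 lymphocyte markers summed to 327 and 345 RPKM and then to 154 and 137 RPKM, nearly all of it NKG7, while the T cell markers CD3D, CD3E and CD3G were at most 0.228 RPKM. The part of these shifts in the changes of the oxidase and superoxide genes was not tested.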

How the data were processed

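RNA-seq of 4 MOLM-13 libraries was analysed from deposited RPKM values, 1 per Ensembl gene ID and library, per the file headers. TopHat, Cuffnorm and Cuffdiff, with hg19, are listed per the submitters' processing notes, without roles or versions. For induced 1 the file breaks off in mid-row, with 27332 of 57820 IDs; only IDs in all 4 files were tested. IDs were named from a gene table (51996) or, where that had none, GENCODE 29 (84, SOD2 among them); rows of 1 symbol were summed. Library depth and reads were recovered because 100.0% of low values (up to 20 reads) were whole multiples of 1 read within 0.01 reads; reads were recovered for 98.5% of tested IDs, with gene lengths partly solved from the values. Intervals and floors (0 reads allow up to 3) cover counting error only. Strand was not given, so opposite-strand genes cannot be told apart.

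limma 3.58.1 (R 4.3.3) was fitted to log2(RPKM + 1) of genes averaging 1 RPKM or more (trend, two-sided, Benjamini-Hochberg over all genes, threshold 0.05; 2 residual and 8.72 prior degrees of freedom) and checked on simulated data. Other values used pandas 2.3.3 and scipy 1.17.1. Named genes were the 9, GADD45G, the other oxidase genes, the NCF1 copies and up to 5 tested genes of each other list with the smallest adjusted p. Some genes of the lists are not reported here and were left out of the lists' counts. Members and lists were chosen with earlier results of these data known. The 16 alternatives were other pseudocounts, filters, scalings and priors, a replicate block, the highest row per symbol, voom on recovered reads and leaving out each library.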

Additional observations from a re-analysis of the deposited data

How the results depend on the processing

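Over 16 alternatives CYBB, CAT, SOD2 and NCF1C kept their direction and call. All genes called numbered 4185 (1314 higher, 2871 lower); after quantile normalization the split was 1874 and 2080, after upper quartile scaling 1700 and 2293 and with the median change set to 0 it was 1877 and 2045. With no filter 2462 were called, and leaving out 1 library gave 2597 to 3582. With all 4 libraries, 2 of the 9 genes were called lower in every setting. In the main fit 3 were called higher. With no filter 1 was, as NCF1 and RAC2 were lost. With only genes of 5 RPKM or more 2 were, as NCF1 was not tested there. The calls of NCF1 and CYBA also depended on single libraries, as given with these genes. These changes turned sign, none of them called where they did: RAC1 (0.0319, 0.0228 and 0.0692 after upper quartile scaling, quantile normalization and the median shift; -0.327 to 0.0417 leaving out 1 library), NCF1B (0.0393, 0.153 and 0.158; -0.352 to 0.244), CYBA without induced 2 (range -1.01 to 0.0833), NCF4 (-0.0360 to 0.449) and CYBC1 (-0.115 to 0.227). The titles of untreated 2 and induced 2 share a suffix, and the deviations of same-numbered libraries correlated at 0.349 across genes, which are not independent; whether they were paired is not given. With this pairing as a replicate block 4987 genes were called, and none of the 9 changed its call. Depth limits NCF1, with 96 to 367 reads, and the other oxidase genes with 0 to 10 reads. With 2 libraries a group, p-values rest on the spread borrowed across genes.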
